A study of Mus musculus with 3 samples.

Results

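The genes described here are 34 genes of glucose breakdown, of the pentose phosphate pathway and of the response to low oxygen, measured in NIH3T3, a fibroblast line derived from mouse embryos that grows without limit in culture. They were listed by name with earlier results of these data known, so comparisons of the list with all genes are not independent of these data. A probe set is a group of short probes for 1 transcript. A gene counted as measured when the array had a probe set whose annotation gave that gene symbol and no other. This held for 31 of the 34 genes, through 71 of the 45101 probe sets. Gpi1, Eno1 and G6pdx had no such probe set and have no value here. Of the 31, 29 were tested. Gapdh was left out of the fit because its 3 probe sets are array controls, and Slc16a3 was too dim (a mean signal under 33.3, the median over all probe sets).

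The study looked for short hairpin RNAs (shRNAs) that make these cells more resistant to oxidative stress. It holds 3 arrays, 2 of cells carrying the empty vector (called empty vector 1 and empty vector 2) and 1 of cells carrying an shRNA against retinol saturase (called RetSat shRNA), an enzyme that acts on retinol. The empty-vector cells are labelled as grown in calf serum and DMEM with no treatment and as giving the basal expression. The RetSat shRNA cells are labelled as highly resistant to t-BHP (tert-butyl hydroperoxide, an organic peroxide), and neither their medium nor a treatment is stated. The parent line is common to all groups. The labels do not say whether the lines are clones or pools, which hairpin was used, or whether the control arrays stand for separate cultures. P-values therefore rest on the spread between 2 control arrays, shared in part across genes, and that spread may be technical.

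Glycolysis splits glucose into pyruvate, and fibroblasts in culture send much of that pyruvate to lactate. The pentose phosphate pathway branches off after the first phosphorylation and makes NADPH, the reductant that recycles glutathione and thioredoxin when cells meet peroxides. HIF-1, a transcription factor whose alpha subunit (Hif1a) is marked for destruction by oxygen-dependent prolyl hydroxylases, is known to drive glucose transporters, most glycolytic enzymes and a set of hypoxia genes through sites with the core letters ACGTG or GCGTG.

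The 5-letter word ACGTG is frequent near the start sites of these genes, and 6 windows that hold it are shown. They were chosen after the values were seen, to mark the word in members whose RetSat shRNA signal was the highest, level with a control or the lowest. The windows of Pfkl, Pdk1 and Adm, members the text also turns on, hold 0 copies of ACGTG and are not shown. RefSeq windows of 300 bases (250 before to 50 after an annotated start, build GRCm38.p6) were matched by symbol for 33 of the 34 genes, as 47 windows. ACGTG was searched on both strands (CACGT is the same word on the other strand, and CACGTG holds both). It occurred in 24 of the 47 windows (51.1%) and in 6447 of all 32851 windows (19.6%). GCGTG, searched in the same way, occurred in 61.7% of the members' windows and 32.4% of all windows. Per gene, at least 1 window with ACGTG was found for 14 of the 20 members that lay above both empty-vector arrays, for 2 of the 3 that lay below both, for 3 of the 5 others with a window, and for 30.1% of the 8854 tested genes with a window. A match is a run of letters and not a shown binding site. Below, each window reads 5′ to 3′ along its gene, and capitals mark ACGTG on either strand.

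Slc2a1, the main glucose transporter of fibroblasts, chr4:119108495-119108794, plus strand: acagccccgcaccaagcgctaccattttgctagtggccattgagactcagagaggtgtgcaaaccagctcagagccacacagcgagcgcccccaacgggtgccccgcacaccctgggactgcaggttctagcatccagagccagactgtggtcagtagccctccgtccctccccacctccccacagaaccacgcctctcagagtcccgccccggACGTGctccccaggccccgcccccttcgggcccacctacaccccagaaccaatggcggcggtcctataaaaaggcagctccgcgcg
Ddit4, an inhibitor of mTOR signalling, chr10:59951721-59952020, minus strand: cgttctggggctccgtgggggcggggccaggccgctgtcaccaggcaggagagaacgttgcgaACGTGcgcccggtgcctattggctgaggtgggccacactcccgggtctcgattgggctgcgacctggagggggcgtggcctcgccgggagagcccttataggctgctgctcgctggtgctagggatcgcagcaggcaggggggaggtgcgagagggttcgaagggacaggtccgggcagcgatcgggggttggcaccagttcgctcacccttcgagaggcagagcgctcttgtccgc
Egln3, a HIF prolyl hydroxylase, chr12:54203825-54204124, minus strand: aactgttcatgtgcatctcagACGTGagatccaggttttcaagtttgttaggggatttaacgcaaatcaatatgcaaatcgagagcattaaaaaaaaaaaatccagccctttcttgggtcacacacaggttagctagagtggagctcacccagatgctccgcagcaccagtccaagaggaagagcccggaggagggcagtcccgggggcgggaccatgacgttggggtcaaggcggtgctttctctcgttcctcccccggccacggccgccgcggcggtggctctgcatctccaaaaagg
Bnip3, a mitophagy receptor, chr7:138909457-138909756, minus strand: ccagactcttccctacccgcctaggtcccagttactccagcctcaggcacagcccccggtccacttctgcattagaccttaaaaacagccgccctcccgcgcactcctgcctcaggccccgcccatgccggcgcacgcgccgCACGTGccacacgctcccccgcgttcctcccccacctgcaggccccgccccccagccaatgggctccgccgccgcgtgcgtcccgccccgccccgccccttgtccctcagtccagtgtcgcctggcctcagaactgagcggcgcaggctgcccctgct
Ldha, the lactate dehydrogenase A subunit, chr7:46845554-46845853, plus strand: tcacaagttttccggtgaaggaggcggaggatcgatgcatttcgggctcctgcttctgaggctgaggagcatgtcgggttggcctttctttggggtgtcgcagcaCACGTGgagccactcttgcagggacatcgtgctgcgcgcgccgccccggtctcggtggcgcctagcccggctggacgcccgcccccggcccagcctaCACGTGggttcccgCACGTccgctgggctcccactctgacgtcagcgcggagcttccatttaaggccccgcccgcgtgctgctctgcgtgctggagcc
P4ha1, a collagen prolyl hydroxylase subunit, chr10:59323046-59323345, plus strand: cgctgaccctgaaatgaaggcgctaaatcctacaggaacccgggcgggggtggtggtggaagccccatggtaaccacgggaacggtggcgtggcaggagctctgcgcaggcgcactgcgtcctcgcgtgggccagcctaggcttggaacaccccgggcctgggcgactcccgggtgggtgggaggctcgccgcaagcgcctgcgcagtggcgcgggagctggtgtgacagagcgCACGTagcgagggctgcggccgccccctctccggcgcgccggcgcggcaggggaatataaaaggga

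Slc2a1, Ddit4, Egln3 and Bnip3 all had RetSat shRNA as the highest array on their brightest probe set. Another probe set of Slc2a1 had it between the controls, and the other one of Egln3 had it lowest. The Ldha window held the word more often than any other window of a member, and the gene was nearly level with empty vector 1. P4ha1 also had the word and had RetSat shRNA as the lowest array on its brightest probe set, though not on its other one.

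Across the list, small higher readings on RetSat shRNA were the common pattern with the deposited scaling, and no gene passed the test. Of the 29 tested members, 20 lay above both empty-vector arrays, where 34.4% of all 10843 tested genes did, and 3 lay below both (Aldoc, Pdha1 and P4ha1), where 25.4% of all tested genes did. The median log2 difference of the members from the mean of the empty-vector arrays was 0.25, against 0.07 over all tested genes. It was 0.28 against empty vector 1 (0.14 over all genes) and 0.15 against empty vector 2 (0.00 over all genes). After quantile normalization, a scaling described below, the members' median from the control mean was 0.12, close to the 0.099 over all genes. All differences are on a log2(signal + 10.2) scale, which understates those of dim genes. In limma with Benjamini-Hochberg adjustment, 0 of 10843 genes (0%) and 0 members were called, with 108 genes and 0 members at an unadjusted p under 0.05. Every tested member had an adjusted p of 1, with standard errors of 0.50 to 0.60 log2. These errors are moderated by limma, which draws each gene's spread toward a value shared by all tested genes. Tkt, with controls 0.02 log2 apart, thus had an SE of 0.50 as well. Only the differences of Ddit4, Adm and P4ha1 exceeded their standard error. More transcripts per cell and a larger share of cells that hold them cannot be told apart in these RNA samples.

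The sizes were modest. At least 1.2-fold above both empty-vector arrays stood 5 members (Slc2a1, Pfkl, Pdk1, Egln3 and Ddit4), where 7.71% of all tested genes did, and 0 members stood as far below both, where 8.13% did. The count was 8 without empty vector 1 (14.1% of all genes) and 16 without empty vector 2 (41.1% of all genes). No tested member was 2-fold from both arrays, where 0.59% of all genes were. Between the empty-vector arrays themselves 3 of the 29 members differed at least 2-fold (Pfkp, P4ha1 and Adm), where 12.7% of all genes did. RetSat shRNA lay above both controls by more than the controls differed from each other for 9 members (Slc2a1, Pgam1, Pdk1, Slc16a1, Tkt, Taldo1, Hif1a, Egln3 and Bnip3), where 10.3% of all tested genes did. That limit was chosen after the values were seen, and the count is for the deposited scaling. After quantile normalization, a scaling described below, Pgam1 and Hif1a lay between the controls. Tkt, Taldo1 and Bnip3 still lay above both, but by less than the controls differed. Slc2a1, Pdk1, Slc16a1 and Egln3 kept the wider lead, and Vegfa gained it. The share of all genes was not counted for that scaling.

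**Figure D1:**
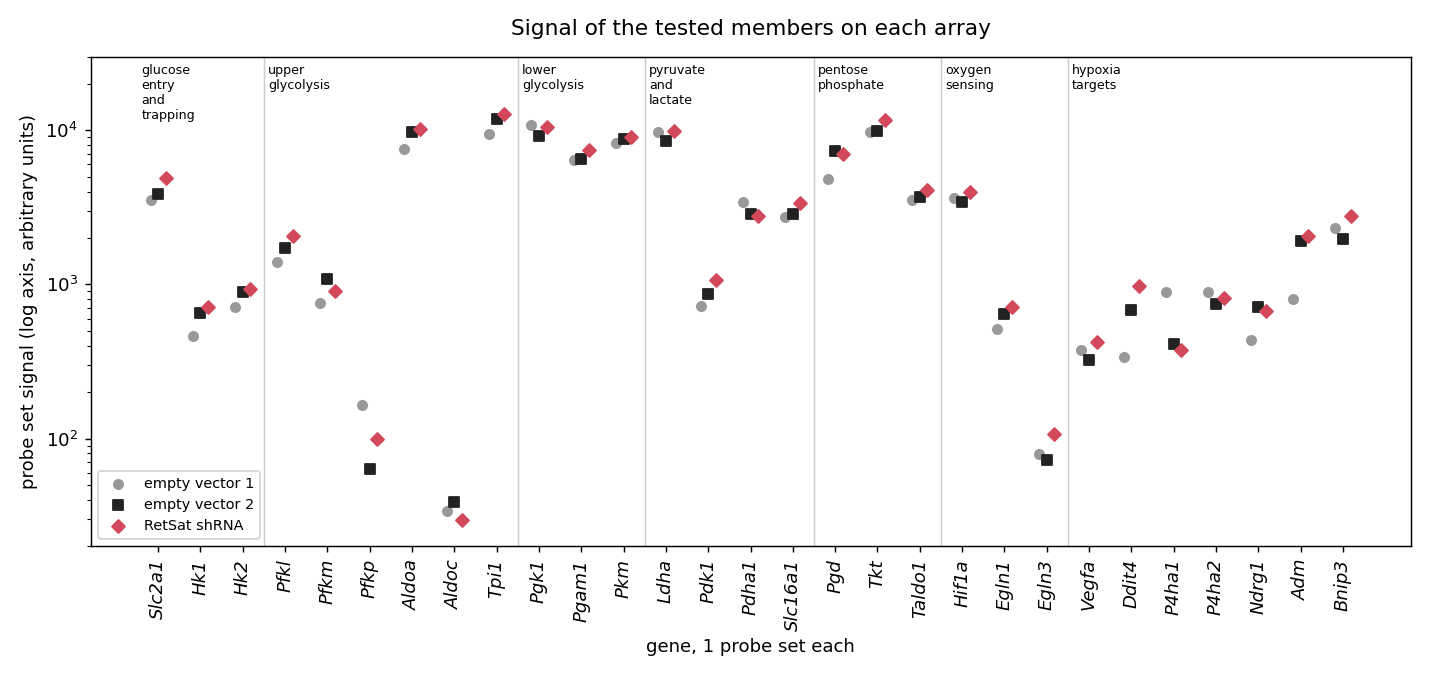
Signal of each tested member on the 3 arrays, on a log axis, with genes grouped by role and 1 probe set per gene. Grey circles are empty vector 1, black squares empty vector 2 and red diamonds RetSat shRNA. The red diamond is the highest point for 20 of the 29 genes and the lowest for 3.

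The empty-vector arrays were unequal, and this bears on every value below. Over all tested genes the log2 difference had an SD of 0.74 between the empty-vector arrays and of 0.34 between RetSat shRNA and empty vector 2. Over the 29 members the same SDs were 0.51 and 0.215. RetSat shRNA and empty vector 2 share replicate number 2 in their titles. Whether the distance between the controls goes with that number was not tested. Values given as 3 in a row below are empty vector 1, then empty vector 2, then RetSat shRNA. Retsat itself read 416, 496 and 69.5, a difference of -2.54 log2 from the control mean, which goes with the labels. It was not called in the limma fit above either. The lack of a call for a member thus does not show that the member was unchanged. All 9 measured fibroblast markers of 10 passed the filter, and their summed signal ran from 71624 to 72980 over the arrays. Single markers moved apart within that sum, with the receptor Pdgfra at 4733, 2172.5 and 1887 and the receptor Pdgfrb at 1287, 2548 and 2455, both named after their values were seen. Endothelial markers passed in 0 of 6 cases (sums 76.2 to 99.8), epithelial markers in 4 of 8 (sums 299 to 379) and leukocyte markers in 3 of 7 (sums 771 to 862, mostly Cd14). The leukocyte antigen Ptprc read 4.4 to 15.2, and no marker read 0.

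How many members stood above both arrays also depended on brightness and scaling. Bright genes in general read higher on RetSat shRNA, by a median of 0.28 log2 over empty vector 1 and 0.06 over empty vector 2 for the class described next, which holds 12 of the 29 tested members. Among the 751 tested genes with a mean signal of at least 3000, a limit chosen after the values were seen, 61.7% lay above both empty-vector arrays, against 32.4% of the 10092 dimmer genes. Of the 12 members in the bright class 9 did so, and of the 17 dimmer members 11 did so. After quantile normalization, which gives the arrays the same distribution of signals, 3 of the 12 bright members remained above both (Slc2a1, Tkt and Taldo1), where 32.8% of bright genes did. Of the dimmer members 11 of 17 were above both again (Hk1, Hk2, Pfkl, Pdk1, Slc16a1, Egln1, Egln3, Vegfa, Ddit4, Adm and Bnip3), where 36.5% of dimmer genes were. Over the whole list the count went from 20 to 14 of 29 (36.3% of all genes), and it was 22 of 29 with arrays centred on their medians (45.4% of all genes). The count of bright members above both thus fell with the scaling to equal distributions, and the count of dimmer members did not.

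**Figure D2:**
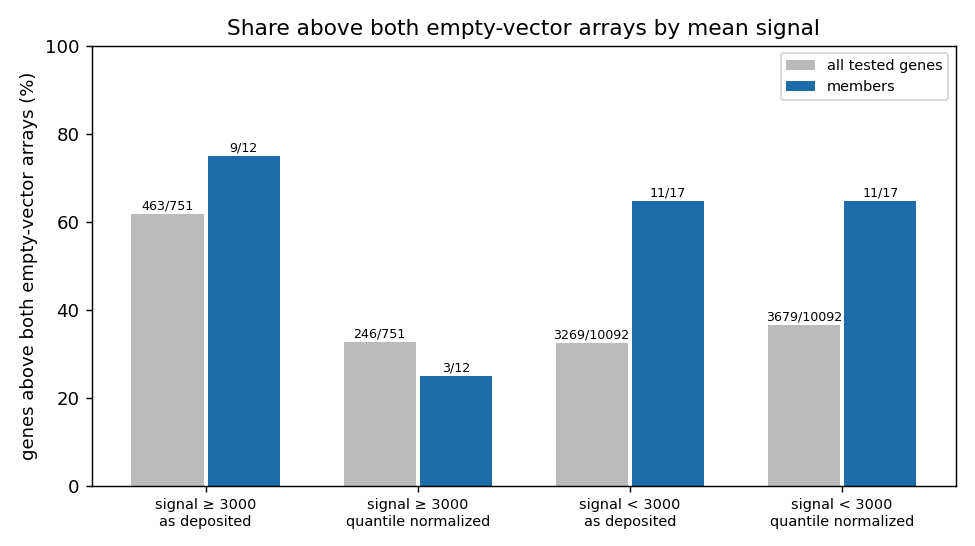
Percentage of genes that lay above both empty-vector arrays, for all tested genes (grey) and members (blue), split at a mean signal of 3000, with the deposited scaling and after quantile normalization. Numbers over the bars are genes above both out of genes in the class. The bright members go from 9 of 12 to 3 of 12, and the dimmer members stay at 11 of 17.

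Glucose entry and trapping read higher on RetSat shRNA at all 3 genes, also after quantile normalization. Slc2a1 read 3507 on empty vector 1, 3860.1 on empty vector 2 and 4925 on RetSat shRNA, which is 1.28 times empty vector 2. The controls were close here and RetSat shRNA stood clear of both, with a log2 difference of 0.42 (SE 0.50, adjusted p = 1 in limma) from their mean. A second probe set for the same transporter read 2231, 2367 and 2656, in the same order, and the third read 1481, 1173 and 1414, which puts RetSat shRNA between the controls. The hexokinases phosphorylate glucose and so hold it in the cell. Hk1 read 463, 653 and 719, and Hk2 read 709.6, 897 and 939. On these brightest probe sets the lead over empty vector 2 (0.14 and 0.07 log2) was smaller than the distance between the controls. The second Hk1 probe set read 291.5, 284 and 353, with controls 0.04 log2 apart and RetSat shRNA 0.27 and 0.30 above them.

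In upper glycolysis 3 of 6 tested genes lay above both controls, 1 below and 2 between. Pfkl, the liver-type subunit of phosphofructokinase, which commits sugar to glycolysis, read 1405, 1717 and 2068. Its second probe set read 939.7, 984 and 1126, and both put RetSat shRNA on top, while the third, a dim one, read 66.5, 50.6 and 43.1 in the opposite order. The other phosphofructokinase subunits did not share the order. The muscle-type Pfkm read 757, 1090 and 911, and the platelet-type Pfkp read 164, 63.4 and 99.5, each with RetSat shRNA between controls that lay far apart. The difference of Pfkm from the control mean was 0.00, and that of Pfkp was -0.05 with the deposited scaling and 0.12 after quantile normalization.

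The aldolase Aldoa, which splits fructose bisphosphate, read 7617, 9709 and 10215. Of its 5 probe sets 4 had RetSat shRNA on top. The triose phosphate isomerase Tpi1 read 9395, 11861 and 12686, with the same order on all 3 of its probe sets. On the brightest probe set of both genes most of the distance was between the controls, and after quantile normalization RetSat shRNA lay between the controls. Other probe sets had closer controls. For Aldoa the next 2 in brightness had controls 0.02 and 0.13 log2 apart and RetSat shRNA 0.21 and 0.30 above empty vector 2. For Tpi1 the third had controls 0.17 log2 apart and RetSat shRNA 0.18 above empty vector 2. Aldoc, the brain-type aldolase, was near the filter at 33.7, 38.8 and 29.8.

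Lower glycolysis had the lowest median difference from the control mean of any role (0.09 over 3 tested genes). Against empty vector 2 alone its median was 0.195, above those of glucose entry (0.14), upper glycolysis (0.09), the pentose phosphate genes (0.145) and the hypoxia targets (0.11). The order of the arrays changed with the scaling. Gapdh, which oxidises glyceraldehyde phosphate, read 17416, 17374 and 18614 on the control probe set for the 5′ part of its transcript. The middle part read 16942, 16971 and 17542, and the 3′ part read 14650.1, 16175 and 17327. All 3 put RetSat shRNA on top by 0.05 to 0.10 log2 over empty vector 2. The phosphoglycerate mutase Pgam1 read 6380.2, 6496 and 7497, above both close controls, though after quantile normalization it lay between them. Pyruvate kinase Pkm read 8287, 8802 and 9064, and its difference from the control mean of 0.09 became -0.08 after quantile normalization.

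The phosphoglycerate kinase Pgk1 read 10745, 9186 and 10518, between the controls. Its difference of 0.08 became -0.07 after quantile normalization. A second probe set of Pgk1 read 8203, 9616 and 11139.5, with RetSat shRNA on top, and the third read 5653, 3808 and 3855. The 3 probe sets thus gave 2 different orders of the controls.

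Among genes that act on pyruvate and lactate, 3 of 4 tested had RetSat shRNA above both controls and 1 had it below, and none passed the test. Pdk1, a kinase that switches pyruvate dehydrogenase off, read 726, 872 and 1067, which is 1.22 times empty vector 2. Its second probe set read 682, 589 and 765, also highest on RetSat shRNA. The third read 255, 122.5 and 246, and the last, a dim one, read 66.1, 48.9 and 47.7, so only 2 of 4 probe sets had RetSat shRNA on top. Pdha1, the catalytic subunit that Pdk1 acts on, read 3437, 2878 and 2796 and lay below both, by 0.04 log2 under empty vector 2. Its other probe set read 1778, 684 and 620.0 and kept that order.

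Ldha, which turns pyruvate into lactate, read 9809, 8567 and 9884, level with empty vector 1. Its difference from the control mean was 0.11 and became -0.04 after quantile normalization. The monocarboxylate transporter Slc16a1, which moves lactate and pyruvate across the membrane, read 2729, 2848 and 3372, and here the controls differed by 0.06 log2 and RetSat shRNA stood 0.24 above the nearer one. Slc16a3, the lactate exporter induced by hypoxia in many cells, read 7.2, 12 and 34.5. It was highest on RetSat shRNA, but all but the last value lay under the filter of 33.3, so its order rests on signal near the floor and it was not tested.

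All 3 measured pentose phosphate genes had RetSat shRNA above empty vector 1, and they were mixed against empty vector 2. Tkt, the transketolase that returns pentoses to glycolysis, had close controls at 9679 and 9842 and read 11745.5 on RetSat shRNA. Its other bright probe set read 2963, 3754 and 3480.5 and put RetSat shRNA between them. Taldo1, the transaldolase, read 3505, 3690.2 and 4083, above both, by 0.22 and 0.145 log2.

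Pgd, the second NADPH-producing enzyme of the pathway, read 4803, 7335 and 7006. Empty vector 2 was the higher control by 0.61 log2, and RetSat shRNA was level with it. Probe sets of Pgd differed: 2 others read 4041, 6718 and 6436, and 2209.7, 3429.8 and 3304.5, while the remaining one read 2222, 3717 and 6071. Of the 4, 3 thus gave a difference from empty vector 2 between -0.07 and -0.05, and 1 gave 0.71.

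**Figure D3:**
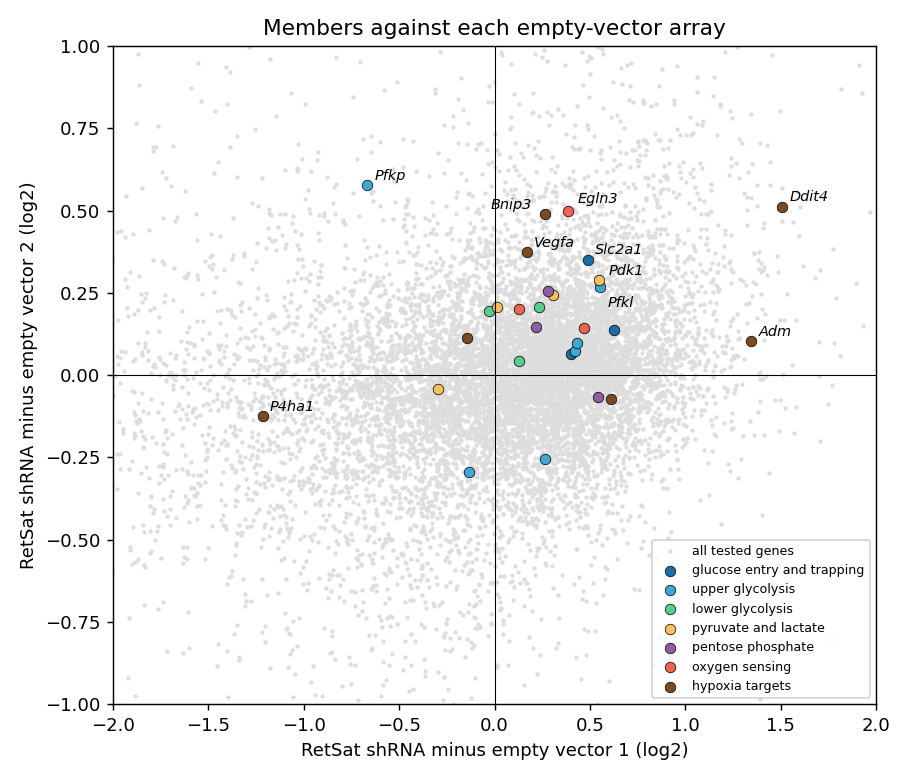
Log2 difference of RetSat shRNA from empty vector 1 (horizontal) and from empty vector 2 (vertical) for the 29 tested members, coloured by role, over all tested genes in grey. The 435 tested genes beyond the axes are not drawn. Both axes share the RetSat shRNA array. Most members lie in the upper right part, 20 in all (14 with quantile normalization), and Ddit4 and Adm lie farthest to the right.

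All 3 genes of oxygen sensing had RetSat shRNA above both controls on their brightest probe set, although Hif1a did not after quantile normalization. Hif1a read 3624, 3444 and 3963 there and 490.0, 490.1 and 559 on its second probe set. Both probe sets had close controls and RetSat shRNA on top. The leads were 0.20 and 0.19 log2 over empty vector 2, and 0.13 and 0.19 over empty vector 1. Quantile normalization put the brightest between the controls. The third probe set of Hif1a read 299, 48.4 and 37.6, so empty vector 1 stood apart there by 2.40 log2. Averaged over all its probe sets, the difference of Hif1a from the control mean was -0.23, against 0.17 on the brightest.

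Egln1, the main prolyl hydroxylase that marks HIF in normal oxygen, read 511, 643 and 711, and 262, 525 and 610.4 on its other probe set. RetSat shRNA was on top both times, close to empty vector 2. Egln3, a hydroxylase that is itself a HIF target, read 79.4, 72.7 and 107 on one probe set and 48.5, 55.9 and 27.4 on the other. The 2 probe sets gave opposite directions, both with close controls and both dim, and the average over probe sets was -0.14, against 0.44 on the brighter.

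Hypoxia targets gave the widest values of the list. Ddit4 read 337, 683 and 978. It was the tested member farthest above the control mean, by 1.01 log2 (SE 0.57, adjusted p = 1 in limma), but the controls themselves lay 0.997 log2 apart, and the ratio to the higher control was 1.43. Adm, adrenomedullin, a vasodilator peptide, read 804, 1917 and 2059.9, and 873, 1582 and 1778 on its other probe set. Empty vector 2 and RetSat shRNA were alike for Adm and empty vector 1 stood apart. The mitophagy receptor Bnip3 read 2307.5, 1971 and 2770.0, and the angiogenic factor Vegfa read 373, 322 and 420.4. For these 2 genes the lower control was empty vector 2, so the lead over it (0.49 and 0.37 log2) was larger than over empty vector 1 (0.26 and 0.17).

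A second Vegfa probe set read 191, 80.6 and 113, with empty vector 1 on top. The collagen prolyl hydroxylases did not share the lead. P4ha1 read 888, 412 and 377, and 324, 34.3 and 47.2 on its other probe set, with empty vector 1 far above the other arrays both times. P4ha2 read 899, 750.0 and 812, between the controls, with a difference of -0.02 that became 0.07 with centred arrays. Ndrg1, a stress-induced gene, read 438, 709.8 and 674 on the brightest of 5 probe sets, of which 1 had RetSat shRNA on top, 2 had it lowest and 2 had it between.

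**Figure D4:**
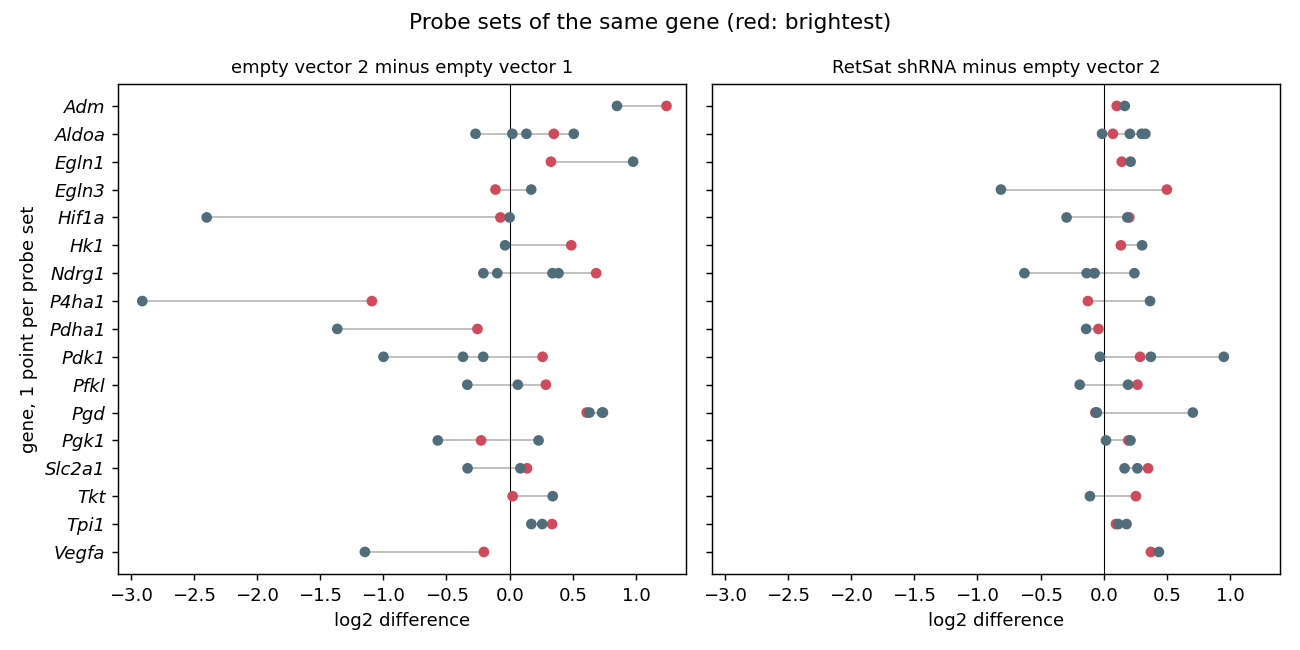
Log2 differences for each probe set past the filter, for the 17 members with several, between the empty-vector arrays (left) and between RetSat shRNA and empty vector 2 (right). Red marks the brightest probe set of a gene. Both probe sets of P4ha1 and single ones of Hif1a, Pdha1 and Vegfa lie far to the left in the control comparison. In the right panel, single probe sets of Egln3, Pdk1 and Pgd lie apart.

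Probe sets of the same gene often disagreed. Of the 61 member probe sets past the filter, controls left out, 35 lay above both empty-vector arrays, where 30.8% of 19518 probe sets did, and 10 below both, where 29.2% did. Of 17 members with several such probe sets, 4 had all of them above both (Adm, Egln1, Hk1 and Tpi1), 1 had all below (Pdha1), and 12 were divided. For 5 of these genes at least 1 probe set lay above both controls and another below both (Pfkl, Pdk1, Hif1a, Egln3 and Ndrg1). Probe set names that end in x_at mark probes that can also match other transcripts, and they include the brightest ones of Aldoa, Pgd, Tkt, Ndrg1 and Adm. The part of this in the results was not tested.

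Among other genes of these pathways the counts were near those of all genes. Of 83 further genes, 57 were tested, and 21 lay above both arrays and 13 below both (36.8% and 22.8%, against 34.4% and 25.4% of all genes). Other hypoxia targets stood above both in 9 of 17 cases (52.9%) and below both in 3 (17.6%). Pgf, a relative of Vegfa, had signals of 41.2, 13.4 and 107, with empty vector 2 under the filter signal of 33.3. Plod2, a collagen lysyl hydroxylase, read 427, 495 and 644, 1.30 times empty vector 2. The histone demethylase Kdm3a read 1125, 418 and 315, and the peptide endothelin (Edn1) read 51.2, 64.4 and 42.9, both below the 2 controls.

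Other glycolysis and pyruvate genes stood above both in 7 of 21 cases (33.3%) and below in 3 (14.3%). The enolases Eno3 (303, 393 and 446) and Eno2 (329, 396 and 428) had RetSat shRNA on top. Of the 3 tested kinases of the fructose bisphosphate signal, Pfkfb2 (78.4, 44.5 and 38.2) and Pfkfb4 (91.0, 129.6 and 82.0) had it lowest. The other one, Pfkfb3, named after its values were seen, read 38.1, 60.6 and 51.4, with RetSat shRNA between the controls.

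Of 13 other pentose phosphate and NADPH genes, 4 lay above both controls (30.8%) and 6 below both (46.2%, against 25.4% of all genes). The endoplasmic reticulum enzyme H6pd read 418, 729.6 and 837, and the ribose phosphate synthetase subunit Prps2 read 604, 557 and 691, both highest on RetSat shRNA. The mitochondrial enzymes Idh2 (2332, 1825 and 1655) and Me2 (487, 371 and 329.6) read lowest on it. Of 6 other oxygen sensing genes 1 lay above both (Egln2, at 889, 1369.6 and 1384) and 1 below (Arnt2, at 786, 690.2 and 619), 16.7% each.

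With 1 RetSat shRNA array, an exact permutation test of a single gene cannot go below p = 0.333 (one-sided).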

How the data were processed

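Total RNA labelled with biotin was measured on 3 one-colour arrays, per the labels. The authors deposited 1 linear intensity per probe set and array, and the 2% trimmed mean was 250 on every array, so they had scaled the arrays. Their summarisation software is not stated in the labels, and no detection calls were used. The small number of arrays limits the precision.

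Of 45101 probe sets, 34958 had 1 gene symbol (13 of them array controls), 932 had several and 9211 had none. Gene IDs were matched to RefSeq symbols of GRCm38.p6 (0 changed). Each gene was read from its brightest probe set (highest mean log2 value). An offset of 10.2 (25th percentile of all values) was added before log2, and genes at or above the median of all probe sets were tested. RetSat shRNA was compared with empty vector in limma 3.58.1 (R 4.3.3; lmFit and eBayes, two-sided, Benjamini-Hochberg, threshold 0.05). The fit has 1 residual degree of freedom, and the lone array is assumed to vary like the controls. The scripts were tested on simulated data.

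The members and lists were chosen with earlier results of these data known. All members are named, with up to 4 genes of each other list, ranked by the smaller of their differences from both controls. Promoter windows come from RefSeq. Alternatives were offsets of 1 and 50, centred arrays, quantile normalization, no filter or one at the 75th percentile, the mean over probe sets, a robust prior, leaving out each control, and, added after the data were seen, a split at a signal of 3000 and a count of members above both controls by more than the controls differ.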

Additional observations from a re-analysis of the deposited data

How the results depend on the processing

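No paired analysis was possible because the groups share only replicate number 2. Against 0 genes called by limma, 1 was called with centred arrays and 7 with a robust variance prior. The members' median difference of 0.25 became 0.338 with centred arrays (0.157 over all genes, against 0.067 with the deposited scaling) and 0.12 after quantile normalization (0.099 over all genes). It was 0.145 without empty vector 1 (0.00 over all genes) and 0.279 without empty vector 2 (0.141 over all genes). Members at least 1.2-fold above both controls (5) became 10 with centred arrays (12% of all genes). They became 2 of 28 with the mean over probe sets (7.67% of all genes). With a control left out they became 8 without empty vector 1 and 16 without empty vector 2 (14.1% and 41.1% of all genes). Those as far below (0) became 1 and 3 in the same order (15.5% and 28% of all genes). Members below the controls (3) became 6 either way (50% of all genes without empty vector 1 and 40.9% without empty vector 2). Members above them (20) became 23 either way (49.9% and 59% of all genes). Members at least 2-fold away (0) became 0 and 3 (188 and 1478 of all 10843 genes). Without a filter 1 member, Slc16a3, was 2-fold from both. Of the 20 members above both with the deposited scaling, 9 were so by more than the controls differed. Quantile normalization changed which ones. Split at a signal of 3000, the 20 members above both became 9 bright and 11 dimmer ones, and 3 and 11 after quantile normalization. A sign change from the mean of the controls was seen after quantile normalization for Ldha (-0.044), Pfkm (-0.001), Pgk1 (-0.066), Pkm (-0.084) and Pfkp (0.12), with centred arrays for P4ha2 (0.074) and Pfkp (0.043), and with the mean over probe sets for Egln3 (-0.142), Hif1a (-0.232), Ndrg1 (-0.023), Pfkp (0.291) and Tkt (-0.164). The mean over probe sets also takes in those below the filter, which Tkt, Pfkp and Hif1a have. The Tkt probe set below it had RetSat shRNA as the lowest array. Pfkp had only its brightest probe set past the filter. The sign changes of Tkt and Pfkp with that mean thus rest on dim probe sets. No member was called in any fit, and the cause was not tested. Signal over background limits Egln3, Pfkp, Aldoc and Slc16a3, which lie near the floor.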
